A study of Mus musculus with 9 samples.

Results

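Cdc45, Mcm4, Dbf4 and Cdk6 are 4 genes that cells use to enter S phase and to start copying their DNA. Here their messenger RNA was followed in cultured mouse satellite cells, the stem cells of skeletal muscle, across 3 culture media and 4 passages. The 4 rows were taken by gene name from a table of 11148 gene rows measured in 9 libraries, and all 4 were among the 3210 rows with a mean of at least 1 RPKM (reads divided by the length of the gene and by the depth of the library). They were picked by name, but with earlier results of these data known.

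Replication is prepared in G1, when the Mcm helicase, of which Mcm4 is a subunit, is loaded on origins in an inactive form. Cyclin D with Cdk4 or Cdk6 phosphorylates the retinoblastoma protein and so frees E2F factors, which switch on genes of S phase. The kinase Cdc7, which works only when bound to Dbf4, then phosphorylates Mcm4 and its partner subunits, and Cdc45 joins the helicase and makes it active. Satellite cells rest in adult muscle, divide after injury or in culture, and leave the cell cycle when they fuse into muscle fibres.

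Limb muscle of newborn mice aged 1 to 3 days (strain label C57/BL6/DBA, both sexes pooled) was the source, and the cells grew on collagen. F10 medium was used for 1 library, at passage 0 (P0), and the labels state neither serum nor FGF (fibroblast growth factor) for it. T cell medium, used for libraries of P0, P1, P2 and also P15, was an equal mixture (50% each) of T cell conditioned medium and F10 medium carrying 15% serum, with FGF at 2.5 ng/ml. Cytokine medium, used at the same 4 passages, was F10 medium with 15% serum and the same FGF, plus 5 ng/ml of IL-1α and of IL-13 and 10 ng/ml of TNF-α and of IFN-γ. Each medium and passage had 1 library, so the passages stand in for replicates. Nothing in the labels says whether the passages of a medium were separate cultures, and p-values measure only the spread between these libraries. In such bulk samples, fewer dividing cells and less RNA per cell cannot be told apart.

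The deposited values of most rows do not lie on the exons of the gene named in the row. The position of the values on each chromosome was therefore fitted, and a name was used in 795 of 11148 rows (7.1%). All 4 genes were in stretches without an offset. The placement was fixed within 120 bases on chromosome 16, which holds Cdc45 and Mcm4, and within 1040 bases on chromosome 5, which holds Dbf4 and Cdk6. Of the rows with a usable name 67.2% reached 1 RPKM, against 25.8% of the others. The fit itself seeks expressed values on exons, so this difference is partly built in and is no check of the names. Depth and read numbers were not read from the sources but worked out from the smallest steps of the RPKM values and the reference exon lengths. Depth found in this way was 13.0 to 18.2 M reads in the deeper column of each library. In that column the reads numbered 3257 to 5835 for Mcm4, 1153 to 2079 for Dbf4, 529 to 1082 for Cdc45 and 562 to 1997 for Cdk6.

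In GENCODE vM21 on GRCm38 (mm10), Mcm4 (ENSMUSG00000022673) lies at chr16:15623897-15637400 and Cdc45 (ENSMUSG00000000028) at chr16:18780447-18811987, both on the minus strand. Dbf4 (ENSMUSG00000002297) lies at chr5:8396973-8422716 on the minus strand, and Cdk6 (ENSMUSG00000040274) at chr5:3341485-3531008 on the plus strand. Mcm4, Cdc45 and Dbf4 each sit head to head with a gene on the other strand. The first exons of Cdc45 and Ufd1, which encodes an adaptor of the protein segregase p97, share 209 bases. Mcm4 is 465 bases from Prkdc, the catalytic subunit of the DNA-dependent protein kinase. Dbf4 is 133 bases from Slc25a40, a mitochondrial carrier. Cdk6 shares 368 exon bases with the antisense gene Gm17590. With the strand setting of the counting not given in the sources used here, reads from these shared bases cannot be assigned to a strand.

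The DNA before the start sites is shown for Dbf4, Cdc45 and Cdk6. Only the stretch of Dbf4 is a gap between the gene and its head-to-head neighbour. The stretch of Cdc45 lies within the gene Ufd1, between exons. The stretch of Cdk6 lies inside the GENCODE span of Cdk6 given above, outside annotated exons. The start site used for it (3343893) is downstream of the GENCODE start (3341485). The sequences are the longest stretch outside annotated exons in the 250 bases before each start site (RefSeq, GRCm38.p6; 3 of the 4 genes matched). Capitals mark matches to TTTGAA in Cdc45, and to GGGCGG or to ACGCGT in Dbf4, read 5′ to 3′ along the strand of the gene.
Dbf4, chr5:8422717-8422849, minus strand, the whole gap to Slc25a40: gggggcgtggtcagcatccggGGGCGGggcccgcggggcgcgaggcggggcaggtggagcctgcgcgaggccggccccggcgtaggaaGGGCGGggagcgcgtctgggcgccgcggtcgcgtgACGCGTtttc
Cdc45, chr16:18812079-18812222, minus strand, 250 to 107 bases before the start: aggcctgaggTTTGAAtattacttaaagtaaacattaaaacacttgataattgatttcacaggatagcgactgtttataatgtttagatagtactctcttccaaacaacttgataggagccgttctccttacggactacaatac
Cdk6, chr5:3343789-3343892, plus strand, the last 104 bases before the start: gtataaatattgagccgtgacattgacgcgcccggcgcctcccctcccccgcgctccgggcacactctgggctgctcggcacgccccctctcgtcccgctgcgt

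The stretch of Dbf4 was 81.2% G and C and held 23 CpG, and that of Cdk6 was 69.2% G and C with 13 CpG. The stretch of Cdc45, which lies within Ufd1 and does not reach the start site, was 34.7% G and C and held 3 CpG. In the windows of 300 bases around the start (250 before it and 50 after), both strands were searched for the CCAAT box, the cell cycle homology region TTTGAA, the GC box GGGCGG and the letters ACGCGT of a cell cycle box. E2F-type sites were searched as TTCCCGC, alternatively as TTCGCGC, alternatively as TTGCCGC and finally as TTGGCGC. No searched motif overlapped another in these windows. No E2F-type match was found in the 3 windows, and 9.57% of all 32851 promoter windows held one. CCAAT was found on the opposite strand of Cdc45 with its first base 13 and 2 bases before the start, and 37.4% of windows held it. TTTGAA was in the windows of Cdc45 and Dbf4, and in 17.9% of all. GGGCGG was in the same 2 windows, 3 times in that of Dbf4, and in 35.7% of all. ACGCGT stood 10 bases before the start of Dbf4, and in 1.86% of all windows. The window of Cdk6 held none of these letters. A match is a description and not a binding site.

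Mcm4 had the highest level of the 4 in 9 of 9 libraries, at 2.80 to 3.91 times the next, on the RPKM scale that divides by gene length. Its mean over the 9 libraries was 73.1 RPKM, against 22.2 for Cdc45, 18.3 for Cdk6 and 15.9 for Dbf4. Cdc45 was above Dbf4 in 9 of 9 libraries. Cdk6 had no fixed rank: it was above Dbf4 in 6 libraries and above Cdc45 in 1. The length of the gene model behind the RPKM, worked out from the values, was 3735 bases for Cdk6. The reference exons add up to 13989, so the place of Cdk6 in this order rests on that model.

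In cytokine medium all 4 genes were higher than in T cell medium at each of the 4 passages, by 1.24-fold or more at P0 to P2 and by no more than 1.09-fold at P15. Cdk6, the G1 kinase, had the largest ratio of the 4 at P0, P1 and P2, and Cdc45 had it at P15. Over all passages only Cdk6 passed the test. Over P0 to P2, with P15 left out, all 4 passed, while with P0, P1 or P2 left out none of them did.

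Cdk6 was at 27.1, 29.1 and 24.1 RPKM in cytokine medium at P0, P1 and P2, and at 13.4 at P15. In T cell medium it was at 15.5, 19.4, 13.5 and 12.5 RPKM at the same passages. The 3 early cytokine libraries were thus all above every T cell library, and the cytokine library of P15 was among the T cell values. The group means over P0 to P2 were 26.8 ± 2.51 (SD, n = 3) in cytokine medium and 16.1 ± 3.00 (SD, n = 3) in T cell medium.

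Mcm4, the helicase subunit, was at 90.0, 89.7 and 79.6 RPKM in cytokine medium at P0, P1 and P2, and at 70.8 at P15. In T cell medium it was at 68.9, 68.3, 56.5 and 68.1 RPKM. The T cell values were close to each other except at P2. The means over P0 to P2 were 86.4 ± 5.90 (SD, n = 3) and 64.5 ± 6.99 (SD, n = 3).

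Cdc45, the helicase activator, was at 29.5, 26.2, 25.0 and 20.1 RPKM in cytokine medium from P0 to P15, each library lower than that of the passage before. In T cell medium it was at 22.1, 20.1, 14.4 and 18.4 RPKM, with the lowest value at P2. The means over P0 to P2 were 26.9 ± 2.31 (SD, n = 3) and 18.9 ± 4.0 (SD, n = 3).

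Dbf4, the activator of Cdc7, varied least in cytokine medium, at 18.6, 17.5, 18.6 and 16.7 RPKM from P0 to P15. In T cell medium it was at 14.4, 14.1, 10.7 and 15.7 RPKM. For Dbf4, as for Mcm4, all 4 cytokine libraries were above all 4 T cell libraries, which held for 7.38% of all rows. The means over P0 to P2 were 18.3 ± 0.677 (SD, n = 3) and 13.1 ± 2.04 (SD, n = 3).

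**Figure D1:**
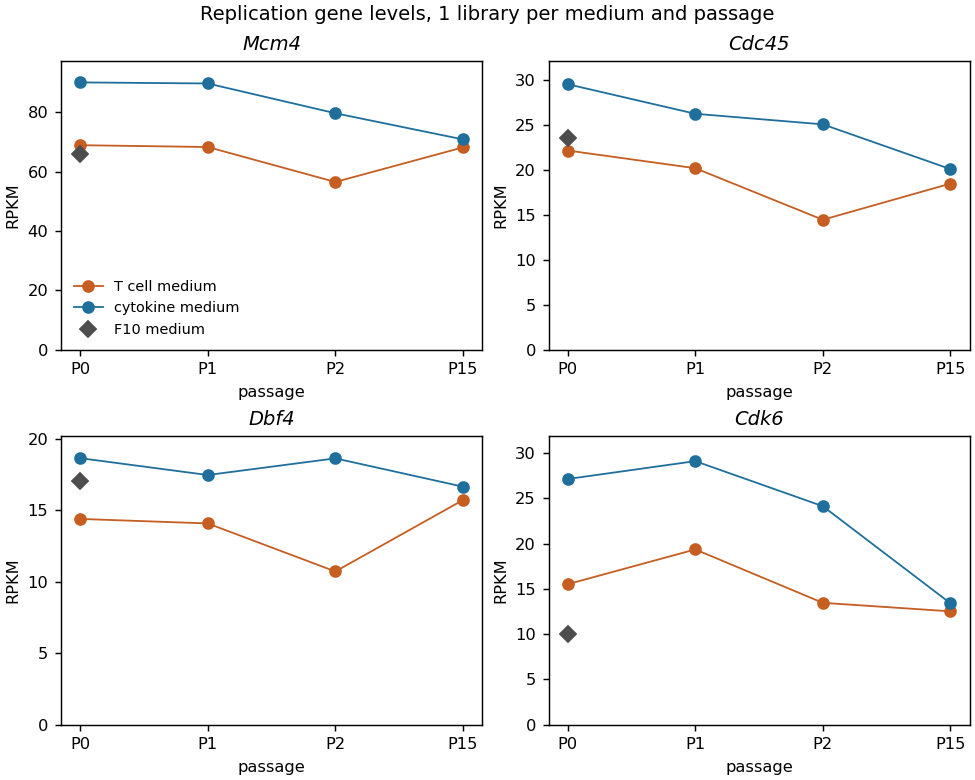
RPKM (vertical axes, from 0) of Mcm4, Cdc45, Dbf4 and Cdk6 by passage (horizontal axes, not to scale in time), 1 point per library, with lines joining libraries of 1 medium. The cytokine points of P0 to P2 lie above all T cell points in each panel, and the points of P15 lie close together.

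Across the table, 12.1% of the 3210 rows had all 3 cytokine libraries of P0 to P2 above all 4 T cell libraries, as all 4 replication genes did. A cytokine value above the T cell value at 4 of 4 passages was found for 22.9% of all rows. The median medium difference of all rows was 0.03 on the log2(RPKM + 1) scale.

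With passage as a term in a limma fit of log2(RPKM + 1), the difference between cytokine and T cell medium over all 4 passages was 0.56 ± 0.13 (SE) for Cdk6, with an adjusted p of 0.0422. It was 0.41 ± 0.11 for Cdc45 (adjusted p = 0.0566), 0.37 ± 0.11 for Dbf4 (adjusted p = 0.0796) and 0.33 ± 0.09 for Mcm4 (adjusted p = 0.0652). So 1 of the 4 genes was called higher, where 5.36% of all rows were (172 of 3210). Of the 534 rows with a usable name, fitted alone, 41 were called higher, Cdk6 among them (adjusted p = 0.0415). The rest of the 4 genes did not pass there. Without the P15 libraries the differences were 0.71 ± 0.09 for Cdk6 (adjusted p = 0.00698), 0.51 ± 0.11 for Cdc45 (adjusted p = 0.0304), 0.46 ± 0.11 for Dbf4 (adjusted p = 0.0430) and 0.42 ± 0.09 for Mcm4 (adjusted p = 0.0324). Then 4 of 4 were called, where 6.92% of all rows were (222 of 3210). The genes were picked with earlier results of these data known, and P15 was the passage where they differed least. This count is therefore a description and not independent support. The call of Cdk6 over all passages was lost when any of P0, P1 or P2 was left out (adjusted p 0.166, 0.151 and 0.123), and when the passage term was dropped (adjusted p = 0.204). The fit over P0 to P2 has not been repeated with fewer passages.

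By passage, the ratio of cytokine to T cell medium for Cdk6 was 1.75 at P0 (95% interval 1.6 to 1.91), 1.5 at P1 (1.4 to 1.62) and 1.79 at P2 (1.65 to 1.95). For Cdc45 the ratio was 1.33, 1.3 and 1.74 at these passages, and for Dbf4 it was 1.3, 1.24 and 1.74. For Mcm4 it was 1.31, 1.31 and 1.41. P2 gave the highest ratio for each gene. At P15 the intervals of all 4 genes held 1: 0.963 to 1.19 for Cdk6, 0.973 to 1.22 for Cdc45, 0.986 to 1.14 for Dbf4 and 0.992 to 1.09 for Mcm4. These intervals rest on read numbers of single libraries and cover counting error only.

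**Figure D2:**
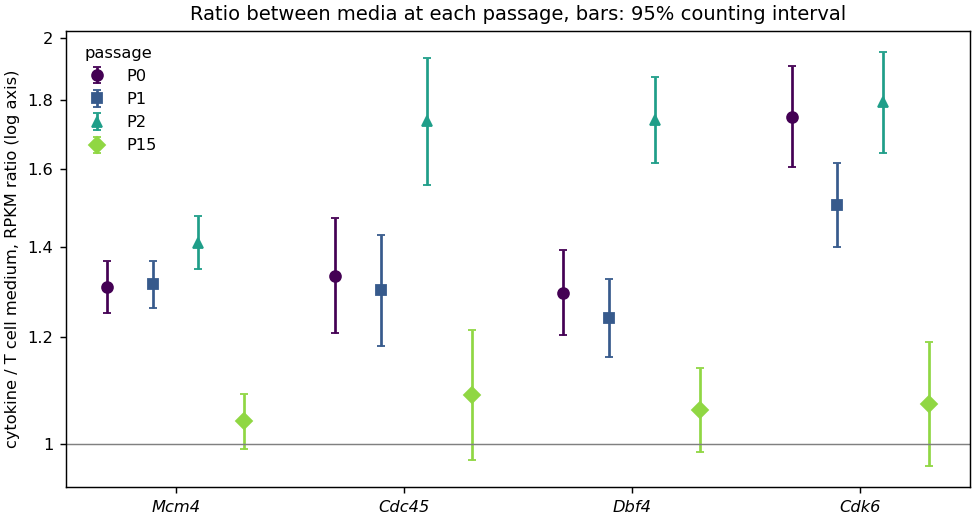
Ratio of RPKM in cytokine medium to that in T cell medium (vertical axis, log scale) at each passage for the 4 genes, with 95% counting intervals as bars. The intervals of P0, P1 and P2 lie above 1 and those of P15 hold 1.

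P15 was also set beside P0 within each medium. In cytokine medium Cdk6 at P15 was 0.494 of its P0 level (95% counting interval 0.451 to 0.542). Cdc45 was at 0.680 of its P0 level, Mcm4 at 0.787 and Dbf4 at 0.893. In T cell medium the same ratios were 0.807 for Cdk6, 0.834 for Cdc45, 0.989 for Mcm4 and 1.09 for Dbf4. Cdk6 thus had the lowest P15 to P0 ratio of the 4 in each medium.

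P15 against P0 to P2 gave no call among the 4 genes. In cytokine medium the limma difference was -0.94 ± 0.20 (SE) for Cdk6 (adjusted p = 0.253), -0.40 ± 0.23 for Cdc45, -0.28 ± 0.17 for Mcm4 and -0.12 ± 0.18 for Dbf4. Only 0.0312% of all rows (1 of 3210) were called lower at P15 in that medium, so the test had 1 call in all. In T cell medium the differences were -0.33 ± 0.20 for Cdk6, -0.01 ± 0.23 for Cdc45, 0.08 ± 0.17 for Mcm4 and 0.26 ± 0.18 for Dbf4. No row was called there by limma (0.0% of 3210), while 160 rows were higher and 201 lower at an unadjusted p under 0.05. As a mean of both media Cdk6 differed by -0.63 ± 0.14 (adjusted p = 0.111), and 0.498% of all rows were called (16 of 3210).

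Whether the media differed less at P15 was fitted as a term of its own. It was -0.62 ± 0.18 (SE) for Cdk6, with an adjusted p of 0.528. For Cdc45 it was -0.39 ± 0.22, for Dbf4 -0.38 ± 0.23 and for Mcm4 -0.36 ± 0.19, with adjusted p between 0.814 and 0.843. None of the 4 was called, and 0.218% of all rows were (7 of 3210). That the media differ less at P15 than before is therefore not shown for these genes. P15 rests on 1 library per medium.

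At P0 the 2 media could also be set beside F10 medium, with 1 library each and no test. Cdk6 was at 10.1 RPKM in F10 medium, its lowest value in the 9 libraries. It was 2.70 times that in cytokine medium (95% counting interval 2.45 to 2.98) and 1.54 times in T cell medium (1.39 to 1.72). On the log2(RPKM + 1) scale, values at least 2-fold higher than in F10 medium were found for 2.18% of all rows in cytokine medium and for 1.62% in T cell medium.

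The other 3 genes were closer to their F10 levels. Mcm4 was at 65.9 RPKM in F10 medium, and 1.37 times that in cytokine and 1.05 times in T cell medium. Cdc45 was at 23.5 RPKM, and at 1.25 and 0.939 times that. Dbf4 was at 17.1 RPKM, and at 1.09 and 0.844 times that. F10 medium therefore stood below both media for Cdk6 and between them for Dbf4, while for Mcm4 and Cdc45 it was within counting error of T cell medium (intervals 0.996 to 1.10 and 0.847 to 1.04). Serum and FGF are not stated for F10 medium, so their part in these differences cannot be told apart from that of the added factors.

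Because Cdk6 and Mcm4 are both per length, their ratio follows the G1 kinase against the helicase within a library. Cdk6 was at 0.153 of the Mcm4 level in F10 medium, at 0.225, 0.284 and 0.238 in T cell medium for P0, P1 and P2, and at 0.302, 0.325 and 0.303 in cytokine medium. At P15 it was at 0.184 in T cell and 0.189 in cytokine medium. The ratio of Cdc45 to Mcm4 ranged less, from 0.255 in T cell medium at P2 to 0.357 in F10 medium.

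Over the 9 libraries Cdc45 and Mcm4 were correlated at r = 0.89 on the log2(RPKM + 1) scale, Cdc45 and Dbf4 at 0.88, Mcm4 and Cdk6 at 0.83, and Mcm4 and Dbf4 at 0.82. Cdk6 followed Cdc45 at r = 0.64 and Dbf4 at 0.43. These are descriptions over 9 libraries that share medium and passage.

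Among 533 other expressed genes with a usable name, those most like Cdc45 over the 9 libraries were Mis18a, a centromere factor (r = 0.97), Thoc1, of the mRNA export complex THO (r = 0.97), and Lamp3, a lysosomal membrane protein (r = 0.97). Those most like Mcm4 were the exporter Abcc1 (r = 0.96), Mina (r = 0.95) and Lamp3 (r = 0.95). For Dbf4 they were Prodh, proline dehydrogenase (r = 0.98), Mrpl39, of the mitochondrial ribosome (r = 0.95), and Gart, an enzyme of purine synthesis (r = 0.94). For Cdk6 they were Txndc11 (r = 0.95), the vesicle GTPase Rab1b (r = 0.92) and Dcbld2 (r = 0.87). Each is the top of 533, and no test is attached.

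The head-to-head neighbours, chosen after their values were known, had medium differences near or below 0. Ufd1, listed as Ufd1l, lay between 11.1 and 12.9 RPKM in the 9 libraries, and its medium difference was -0.01 ± 0.07 (SE, adjusted p = 0.954). Prkdc lay between 0.954 and 1.99 RPKM, near the filter of 1 RPKM, with a medium difference of -0.23 ± 0.11 (adjusted p = 0.204). Slc25a40 lay between 2.68 and 4.05 RPKM, with a medium difference of 0.02 ± 0.07 (adjusted p = 0.846). None of the 3 neighbours passed the test.

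The difference of the log2(RPKM + 1) values of gene and neighbour was greater with cytokines at 4 of 4 passages for each of the 3 pairs. For Mcm4 against Prkdc it was higher by 0.56 ± 0.30 (SD, n = 4 passages), for Cdc45 against Ufd1 by 0.41 ± 0.32 and for Dbf4 against Slc25a40 by 0.34 ± 0.23. An exact two-sided sign-flip test over the 4 passages gave p = 0.125 for each pair (also 0.125 after Benjamini-Hochberg adjustment over the 3), the smallest it can give. With 4 passages this design cannot reach 0.05.

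**Figure D3:**
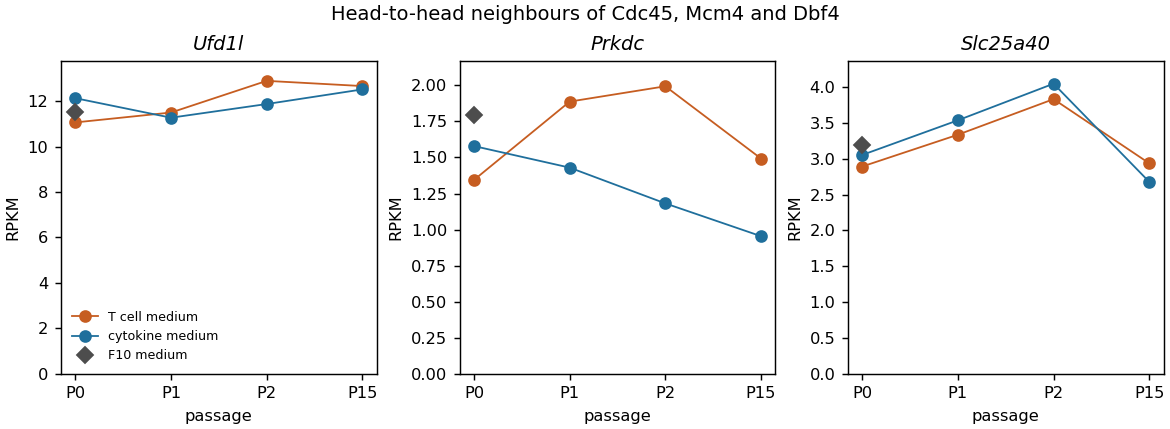
RPKM (vertical axes, from 0) of Ufd1l, Prkdc and Slc25a40, the head-to-head neighbours of Cdc45, Mcm4 and Dbf4, by passage (horizontal axes, not to scale in time), 1 point per library. Ufd1l stays between 11.1 and 12.9 RPKM, and the 2 media cross in each panel.

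T cell medium at P2 held the lowest value of the 8 libraries in these 2 media for Mcm4, Cdc45 and Dbf4, but not for Cdk6. Of all rows, 24.1% had their lowest value there. The same library held the highest levels of muscle fibre genes. Actn3, the fast-fibre α-actinin, was at 86.9, 50.8, 115.5 and 10.5 RPKM for T cell medium in the order P0, P1, P2, P15. In cytokine medium it was at 14.7, 4.79, 11.6 and 8.44 RPKM, and in F10 medium at 30.1. Srl, sarcalumenin of the sarcoplasmic reticulum, was at 63.3 RPKM and Myom2, a protein of the M-band, at 16.3 RPKM in T cell medium at P2, the highest of the 9 libraries.

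Of the 16 muscle lineage markers 4 had a usable name, and 3 of these 4 passed the filter. All 3 were lower in cytokine medium in the limma fit, where 5.73% of all rows were called lower (184 of 3210). The differences were -2.29 ± 0.46 (SE) for Actn3 (adjusted p = 0.0357), -2.02 ± 0.42 for Srl (adjusted p = 0.0363) and -1.90 ± 0.38 for Myom2 (adjusted p = 0.0348). The fourth, Chodl, had a mean of 0.00483 RPKM. The summed level of the 4 was 55.3 RPKM in F10 medium, 18.0 to 195 in T cell medium and 10.1 to 25.4 in cytokine medium. At P15 these muscle genes were also closer between the media, as for Srl at 5.85 RPKM in T cell and 5.03 in cytokine medium. The part of muscle differentiation in the levels of the replication genes was not tested. The names of Pax7, Myf5 and Myod1, which define the satellite cell lineage, were not usable here, so the labelled cell type was checked only by these muscle genes.

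**Figure D4:**
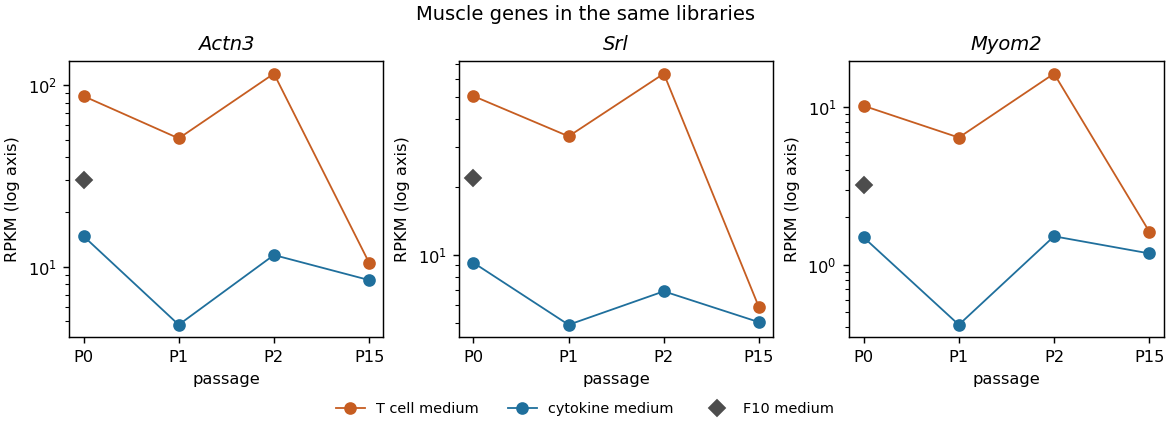
RPKM (vertical axes, log scale) of the muscle genes Actn3, Srl and Myom2 by passage (horizontal axes, not to scale in time), 1 point per library. T cell medium lies above cytokine medium at each passage, most at P1 and P2 and least at P15.

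Markers of other cells were checked in the same way. Of 5 adipocyte markers 2 had a usable name: Adipoq had a mean of 0.00272 RPKM, and the sum of both was 0.411 RPKM in F10 medium, 0.204 to 0.613 in T cell medium and 0.253 to 2.15 in cytokine medium. Of 6 Schwann cell and nerve markers 2 had a usable name, Stmn2 and Gap43. Their sum was 4.79 RPKM in F10 medium, 3.24 to 21.4 in T cell medium and 3.76 to 44.6 in cytokine medium, the highest at P15. Of that 44.6 RPKM, Stmn2 held 38.0. Gap43 in cytokine medium was highest at P2, at 9.07 RPKM, and was at 6.62 at P15. The part of these markers in the results was not tested. No T cell, macrophage, endothelial or fibroblast marker had a usable name.

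Of 147 genes listed for replication and the cell cycle, 99 had a row and 17 a usable name, the 4 genes and 13 others. The names of these 13 rest only on the fitted positions described above and have no other check. What is given under these names is therefore provisional. All 13 were above 1 RPKM. In the limma fit 2 of the 13 were higher in cytokine medium, 1 was lower and 10 did not pass, where 5.36% of all rows were called higher and 5.73% lower. Their median difference was 0.16, against 0.03 for all rows, and 11 of 13 were above 0, against 56.8% of all rows. As in 3 of the 4 genes above, 9 of the 13 had their lowest value of the 8 libraries in T cell medium at P2, against 24.1% of all rows.

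Among genes of helicase activation, Donson, a factor that helps to assemble the active helicase, differed by 0.04 ± 0.09 (SE, adjusted p = 0.771). It was the only gene of that list beside Cdc45 and Dbf4 with a usable name, and Mcm4 was the only one of origin licensing. Of 5 genes of the polymerases, the clamp and the fork, Pola2, the second subunit of DNA polymerase α, was higher in cytokine medium by 0.39 ± 0.07 (adjusted p = 0.0307). It lay at 19.5 to 22.3 RPKM in the 4 T cell libraries and at 25.0 to 30.4 in the 4 cytokine libraries, without overlap, as 7.38% of all rows did in that direction. Pold4, the smallest subunit of DNA polymerase δ, was lower by -0.89 ± 0.11 (adjusted p = 0.0154). It lay at 10.6 to 15.5 RPKM in T cell and at 5.56 to 7.10 RPKM in cytokine medium, again without overlap, as 5.51% of all rows did in that direction. Rnaseh2c, Polq and Rfc4 differed by 0.20, 0.16 and 0.05 and did not pass.

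Of the G1 list, E2f5, a repressor of the E2F family, differed by 0.31 ± 0.11 (adjusted p = 0.122), and Tfdp1, the partner of E2F factors, by 0.21 ± 0.11 (adjusted p = 0.239). Of 3 genes of G2 and mitosis, Mis18a was higher by 0.38 ± 0.09 (adjusted p = 0.0420). Cdca5, the cohesin protector sororin, differed by 0.29 ± 0.11 (adjusted p = 0.138), and Cdc16, of the anaphase-promoting complex, by 0.12 ± 0.07 (adjusted p = 0.314). The checkpoint genes Rad9a and Mus81 differed by -0.02 and 0.01 (adjusted p = 0.901 and 0.943). No gene of nucleotide supply and no inhibitor of cyclin-dependent kinases had a usable name.

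**Figure D5:**
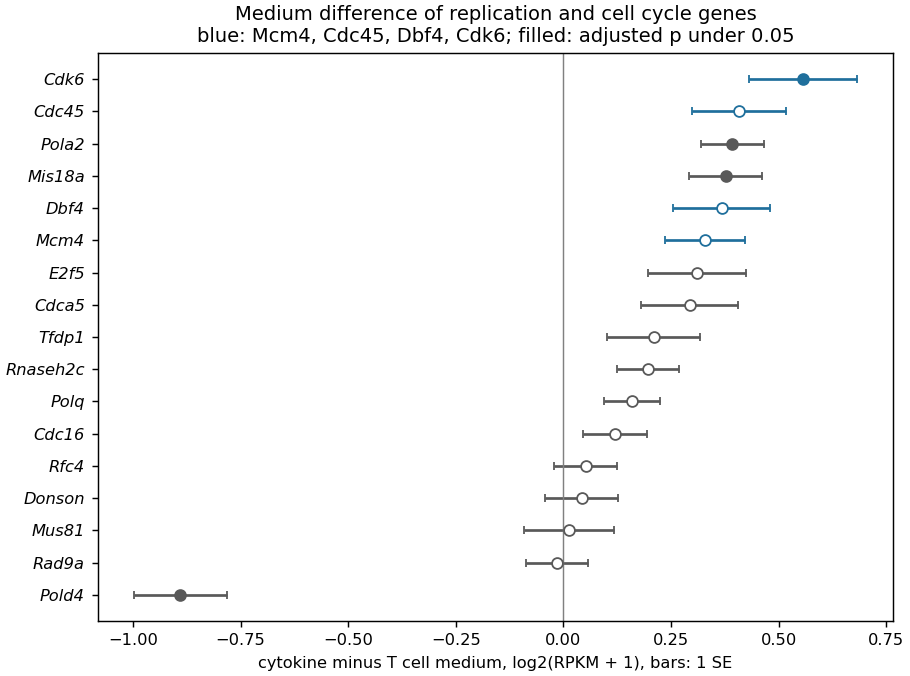
Difference between cytokine and T cell medium (horizontal axis, log2(RPKM + 1), with SE bars) over 4 passages for the 17 replication and cell cycle genes with a usable name. The names of the 13 genes other than Cdc45, Mcm4, Dbf4 and Cdk6 rest only on the fitted positions. Cdk6, Pola2 and Mis18a are higher and Pold4 is lower past the adjusted p of 0.05 (filled points), and Pold4 is the only one far below 0.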

How the data were processed

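RNA sequencing values of 9 mouse satellite cell cultures were deposited by the authors as RPKM, per the file headers, in 18 columns, 2 per library. TopHat2 2.0.1, HTSeq 0.5.4p2 and the build mm10 are named, per the submitters' processing notes. Annotation and strand setting: not given in the sources used here. What the 2 columns of a library are is not stated. Their low values are whole multiples of 1 read (tolerance 0.02), their depths have a ratio of 0.917 to 0.927, and their chi-square per row was 0.427 to 0.46, against 2.88 to 22.72 between libraries. So the columns of a library differ by less than sampling noise and were not taken as independent. Each library counts once, with the mean of its columns.

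Identifiers were matched to GENCODE vM21 (11105 of 11148). Per chromosome a stepwise offset between values and exons was fitted by maximum likelihood (grid 40 bases, up to 8 Mb, cost 9 per change). A name was used in the first segment of a chromosome if offset 0 was within 5 log-likelihood units of the best and all offsets that near lay within 1500 bases. Its last 3 rows were dropped.

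Rows with a mean of at least 1 RPKM (3210) were fitted on log2(RPKM + 1) with limma 3.58.1 (R 4.3.3; intensity trend; Benjamini-Hochberg adjustment over the 3210 rows; called at 0.05). The medium effect and its change at P15 used the 8 libraries of the 2 media with passage as a term. P15 against P0 to P2 used 1 mean per medium and period. Fold changes understate those of low rows. Single-library ratios have 95% intervals from read numbers worked out from the RPKM values. The fits and the placement were tested on simulated data. Motifs and tables used Python. Alternatives were other pseudocounts, filters, scalings, columns and left-out libraries.

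Named were the 4 genes, the list genes with usable names, the 3 most correlated genes for each, the overlapping Ufd1 and the neighbouring rows. The head-to-head neighbours were chosen after their values were known. The genes and lists were chosen with earlier results of these data known.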

Additional observations from a re-analysis of the deposited data

Results flagged for a closer look

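Mcm4 in T cell medium at P2, at 56.5 RPKM, lay far below the other 3 libraries of that medium (68.1 to 68.9 RPKM). Its gap to the next was 0.94 of the whole range, above Dixon's 95% limit for 4 samples. It was the only such case in 8 groups, and chance flags about 1 in 20.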

How the results depend on the processing

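Of 492 recomputed values of the 4 genes, 467 kept their direction and their side of the threshold or moved less than counting error. Part of this was built in, because a difference within a medium cannot change when a library of the other medium is left out. In the comparison of media over all passages, the difference of Cdk6 was 0.48 to 0.71 with 1 passage left out, and the call was lost without P0, P1 or P2 (0.49, 0.55 and 0.48). It was also lost with no filter on low values (0.56, adjusted p = 0.248), where 10934 rows were tested. Cdc45 passed with a mean of at least 5 RPKM (0.41) and on the first column only (0.42), and Mcm4 with quantile normalization (0.32). With 1 passage left out the difference was 0.29 to 0.51 for Cdc45, 0.27 to 0.42 for Mcm4 and 0.24 to 0.46 for Dbf4, and all passed without P15 (0.51, 0.42 and 0.46).

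Libraries of 1 passage were treated as a block. Without this replicate block the differences were unchanged (0.56 for Cdk6, 0.41 for Cdc45, 0.33 for Mcm4 and 0.37 for Dbf4), the adjusted p were 0.204, 0.158, 0.134 and 0.108, and 56 rows were called in place of 356. For the change of the medium effect at P15, 0 rows were called without the block, and the adjusted p of the 4 genes was 0.999.

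Rows called between media (356) numbered 0 with no filter, 221 with a mean of at least 5 RPKM, 80 of 534 with usable names only, and 11 to 480 with 1 passage left out (13, 11 and 26 without P0, P1 and P2). Rows called for P15 as a mean of both media (16) numbered 26 with a pseudocount of 0.1, 10 with one of 5, 157 with no filter, 2 with a mean of at least 5 RPKM, 8 with rescaled sums, 10 without trend, 0 with usable names only, and 1 to 53 with 1 library left out. Within T cell medium (0) they numbered 1 with a pseudocount of 0.1, 2 with one of 5, 88 with no filter, 1 with a mean of at least 5 RPKM, 5 with rescaled sums, 2 on the second column only, and 0 to 19 with 1 library left out. Within cytokine medium (1) they numbered 3 with a pseudocount of 5, 96 with no filter, 3 with a mean of at least 5 RPKM, 0 with quantile normalization, and 0 to 4 with 1 library left out. For the change of the medium effect (7) they numbered 1 with a pseudocount of 5, 0 with no filter, 14 with rescaled sums, 11 with median-ratio scaling, 1 with quantile normalization, 2 without trend, and 0 to 38 with 1 passage left out (13 without P0). The cause was not tested.

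Directions of fitted differences turned in these cases, all of P15 and near 0: Dbf4 as a mean of both media with rescaled sums (-0.021), and within T cell medium Mcm4 with rescaled sums (-0.031), quantile normalization (-0.094) and 1 library left out (-0.009 to 0.13), and Cdc45 with 1 library left out (-0.19 to 0.11). Rescaled sums moved the median of all rows for P15 to -0.09. Single-library differences moved beyond counting error for Mcm4 with quantile normalization (-0.033, from 0.06, for T cell and 0.36 for cytokine against F10 medium, and 0.31 at P2 and 0.14 at P15 between media) and with rescaled sums (0.32 at P1). With a pseudocount of 5 they were 1.10 for Cdk6 in cytokine against F10 medium, and 0.59 for Dbf4 and 0.66 for Cdk6 at P2. P15 as a mean of both media could not be computed without a P15 library, nor could the change at P15. With 3 passages or 1 library a group, small changes are beyond the depth of these data.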
